A study of Mus musculus with 12 samples.

Results

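Sugar uptake and gluconeogenesis are described here through 7 genes, measured on 12 arrays of mouse intestine. The genes are the sugar transporter genes Slc5a1, Slc2a5 and Slc2a2, the fructose kinase gene Khk, and the gluconeogenic enzyme genes Fbp1, G6pc and Pck1. A gene was taken in by its symbol: each probe set that the MG_U74Av2 annotation gives to 1 of these 7 symbols was used, which found 1 probe set per gene, 7 of 12488 on the array and 7 of 8251 genes with a symbol of their own. The series compared tumors with normal intestine of male, 91-day-old Min/+ mice. These mice carry a mutant allele of Apc in every cell and develop intestinal adenomas, and tumors and normal intestine alike came from Min/+ mice. Groups were tumor (6 arrays) and normal intestine (6 arrays). Each tissue had 1 array for every combination of 3 numbered diets and 2 genotypes, Dnmt+/- (6 arrays) and Dnmt+/+ (6 arrays), where Dnmt is a DNA methyltransferase gene that the labels write without a number. Both arrays of a diet and genotype shared a sample code, which made 6 code pairs. The labels say neither what the diets contained, nor from which stretch of intestine tissue was taken, nor whether a code is 1 animal. Every p-value below therefore rests on how far these samples varied, and some of that variation may be technical.

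Enterocytes take up glucose and galactose at the brush border through SGLT1, the sodium-coupled transporter encoded by Slc5a1, and fructose through GLUT5, the facilitative transporter encoded by Slc2a5. GLUT2, encoded by Slc2a2, carries the sugars across the basolateral membrane into the blood. Ketohexokinase, encoded by Khk, starts fructose breakdown. The small intestine can also make glucose: phosphoenolpyruvate carboxykinase (Pck1) feeds the pathway, fructose-1,6-bisphosphatase (Fbp1) reverses the phosphofructokinase step, and glucose-6-phosphatase (G6pc) releases free glucose, as in liver and kidney.

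The sequences upstream of G6pc, Pck1 and Slc5a1 are shown to set side by side the start sites of genes that moved together and apart: G6pc and Slc5a1 were lower in tumor than in normal intestine, and Pck1 was not called. Each sequence is the 250 bases before the RefSeq transcript start on assembly GRCm38.p6, read 5′ to 3′. The windows lie at chr11:101367466-101367715 for G6pc, at chr2:173152823-173153072 for Pck1 and at chr5:33103969-33104218 for Slc5a1, each on the plus strand. Capitals mark the motifs searched on both strands.
G6pc: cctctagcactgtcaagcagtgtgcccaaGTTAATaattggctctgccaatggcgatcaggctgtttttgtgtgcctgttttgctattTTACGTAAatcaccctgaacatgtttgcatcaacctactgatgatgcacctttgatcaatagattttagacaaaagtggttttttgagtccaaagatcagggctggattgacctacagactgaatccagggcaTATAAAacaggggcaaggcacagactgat
Pck1: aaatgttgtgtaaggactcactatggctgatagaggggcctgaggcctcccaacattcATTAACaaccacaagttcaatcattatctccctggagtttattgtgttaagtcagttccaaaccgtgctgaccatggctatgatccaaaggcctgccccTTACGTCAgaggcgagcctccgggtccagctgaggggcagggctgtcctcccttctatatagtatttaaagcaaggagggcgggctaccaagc
Slc5a1: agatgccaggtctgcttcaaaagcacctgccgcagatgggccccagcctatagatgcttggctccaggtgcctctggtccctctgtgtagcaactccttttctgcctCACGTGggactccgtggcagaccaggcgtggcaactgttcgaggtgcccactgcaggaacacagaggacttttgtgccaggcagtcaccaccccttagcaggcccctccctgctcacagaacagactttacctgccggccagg

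The motifs were chosen after these sequences had been read. They were TTACGTNA, the letters of a cAMP response element or C/EBP site, CACGTG, an E-box, GTTAAT, part of the HNF1 site, and TATAAA, the TATA box. TTACGTNA stood 162 bases before the start of G6pc as TTACGTAA and 93 bases before that of Pck1 as TTACGTCA. It occurred in 0.788% of 32851 windows of this length upstream of mouse genes. In the rat Pck1 gene a site of this kind is known to respond to cAMP. CACGTG occurred upstream of Slc5a1, at 143 bases, in the Khk window, at 71 bases before the transcript start used, and in 6.02% of all windows. The Khk window, chr5:30921309-30921558, reaches past the first base of the gene at 30921436, and the Khk matches lie past that base. GTTAAT was found upstream of G6pc, in the Khk window and, on the other strand as ATTAAC, upstream of Pck1, and in 6.43% of all windows. TATAAA lay 29 bases before the start of G6pc and occurred in 12.4% of all windows. None of these letters occurred in the windows of Fbp1, Slc2a5 and Slc2a2. A match is a stretch of letters and not a shown binding site.

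Values were deposited as linear intensities. The 4 diet #1 arrays had mean intensities of 306 to 403 and carried the value 50 for 40.9% to 46.0% of probe sets, while the 8 other arrays had a mean of 1000 and no such floor, so diet #1 and this difference in format cannot be told apart. Deposited intensities are therefore set side by side only within a diet. Within diet #1 the Dnmt+/- arrays were dimmer on average (311 normal, 306 tumor) than the Dnmt+/+ arrays (399 normal, 403 tumor). Deposited values of the 2 genotypes of diet #1 carry that difference. Normalized intensity below means the value after quantile normalization of all 12 arrays, with a floor at 44.8, and tests used its log2 with limma. Exocrine pancreas markers stood out in both normal arrays of diet #2, with a summed normalized intensity of 235368 to 260098, against 24896 to 36494 in the other 4 normal arrays and 26327 to 33727 in tumors. Results that rest on those 2 arrays are given with and without diet #2. With 6 arrays a tissue, precision is limited by their number.

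Tumors carried less transcript of 5 of the 7 genes than normal intestine. Fbp1 was 7.65-fold, Slc2a5 7.58-fold, G6pc 5.40-fold, Slc2a2 4.84-fold and Slc5a1 2.49-fold lower in tumor. Each of these 5 was lower in tumor in 6 of 6 code pairs, and for each the highest tumor array lay below the lowest normal array. Pck1 did not pass the test, and Khk lay at or near the floor in both tissues. In bulk tissue, fewer cells of a type and less RNA per cell cannot be told apart.

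Of the 7 genes, 6 passed the filter on dim probe sets, and 5 of the 6 were called lower in tumor at a limma adjusted p under 0.05. Among all 6400 features tested, 35.2% were called in either direction, with 16.9% lower and 18.2% higher in tumor. Lower values in all 6 pairs were seen for 17.4% of features, and no overlap between all tumor and all normal arrays, with tumor below, for 5.06%. The median log2 difference over the 6 members tested was -2.35, against 0.0015 over all features. Only 3.47% of features were called and at least 2-fold lower in tumor. Ordered by log2 difference from the most negative among the 6400 features, Fbp1 stood at 4, Slc2a5 at 5, G6pc at 20, Slc2a2 at 30 and Slc5a1 at 126. Without the diet #2 arrays the same 5 genes were called lower, with log2 differences of -3.16 for Fbp1, -2.96 for Slc2a5, -2.65 for G6pc, -2.13 for Slc2a2 and -1.36 for Slc5a1.

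**Figure D1:**
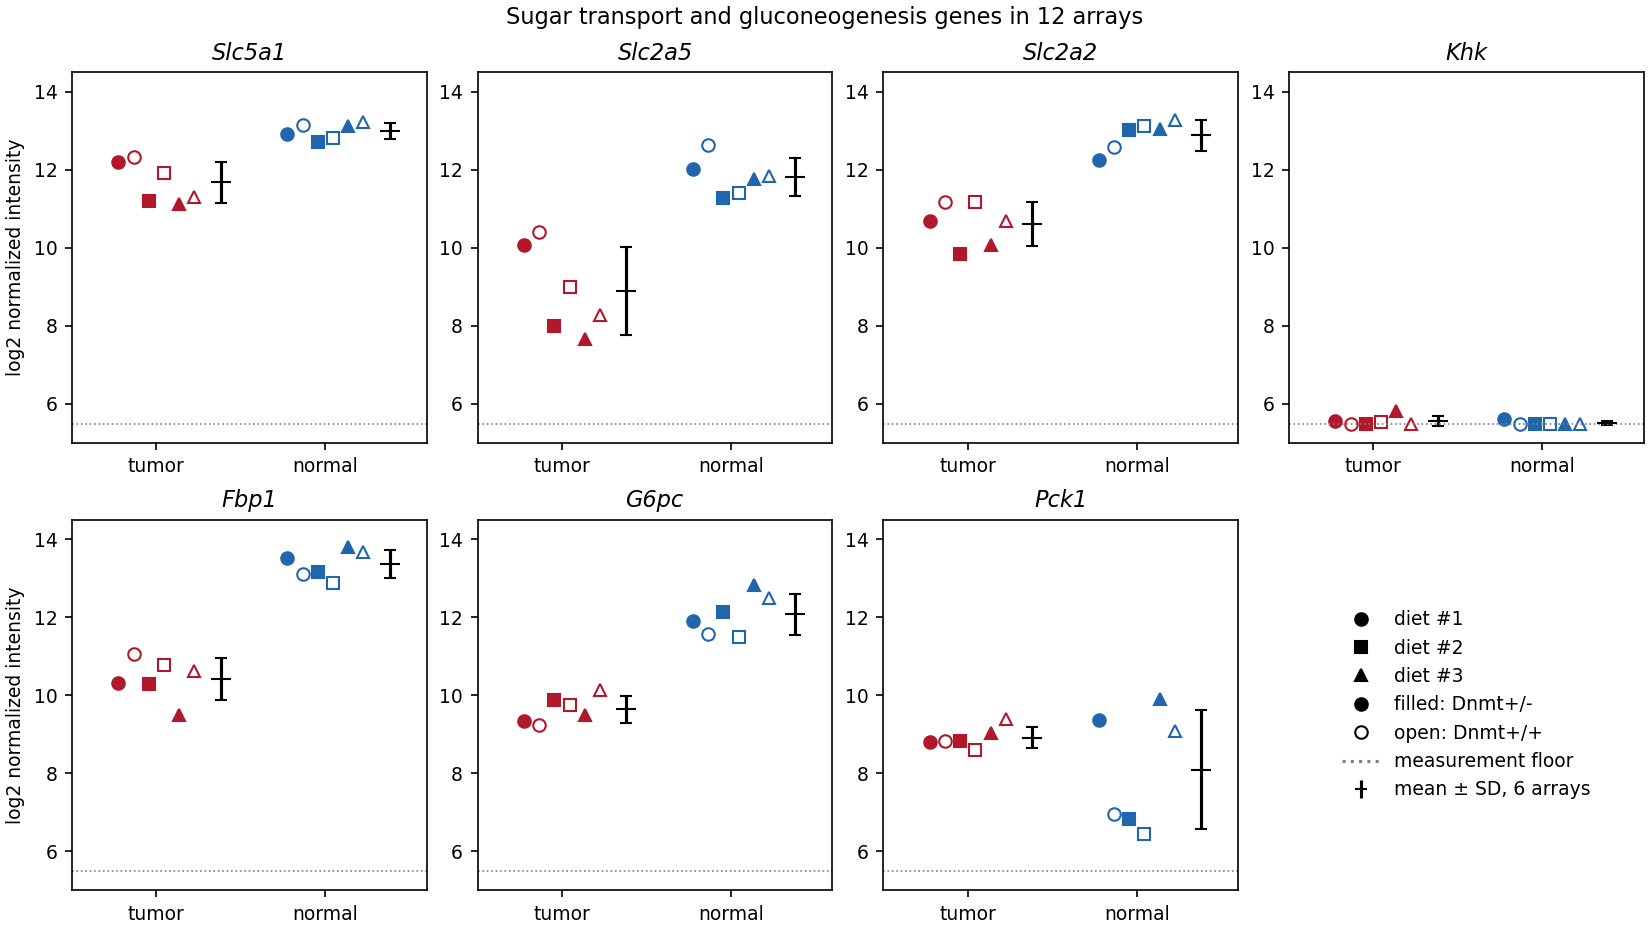
Log2 normalized intensity (vertical axis) of the 7 genes in the 6 tumor arrays (red, left) and the 6 normal arrays (blue, right), with diet as marker shape, Dnmt+/- filled and Dnmt+/+ open, the measurement floor of 44.8 dotted, and the mean ± SD of 6 arrays as black bars. Tumor and normal arrays do not overlap for Slc5a1, Slc2a5, Slc2a2, Fbp1 and G6pc, they overlap for Pck1, and Khk lies at or near the floor; levels of different genes come from different probes and cannot be set against each other.

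Slc2a5, the fructose transporter gene, lies at chr4:150119344-150144168 (GRCm38.p6) and was read by probe set 160839_at. In diet #1 its deposited intensity was 413 in the Dnmt+/- tumor, against 1502 in its normal intestine, and 688 in the Dnmt+/+ tumor, against 3285 in normal. In diet #2 it was 366 in the Dnmt+/- tumor, against 3151 in normal, and 728 in the Dnmt+/+ tumor, against 3366 in normal. In diet #3 it was 287 in the Dnmt+/- tumor, against 4618 in normal, and 398 in the Dnmt+/+ tumor, against 4989 in normal. Tumor values were thus 6.22% to 27.5% of the value in the paired normal array, lowest in the diet #3 Dnmt+/- pair. The mean log2 normalized intensity was 8.90 ± 1.13 in tumor and 11.82 ± 0.48 in normal intestine (SD, n = 6 arrays each). The log2 difference was -2.92 ± 0.26 (SE, limma adjusted p = 6.27e-05). Tumor arrays varied more than normal ones: the 2 diet #1 tumors were the highest of the 6 after normalization and the diet #3 Dnmt+/- tumor was the lowest.

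Slc2a2, which encodes the basolateral transporter GLUT2, lies at chr3:28697903-28728361 and was read by 103357_at. In diet #1 its deposited intensity was 615 in the Dnmt+/- tumor, against 1826 in normal, and 1123.5 in the Dnmt+/+ tumor, against 3166 in normal. On diet #2 the intensities were 1270 in the Dnmt+/- tumor, against 11235 in normal, and 3026 in the Dnmt+/+ tumor, against 12409 in normal. On diet #3 they were 1388 in the Dnmt+/- tumor, against 11155 in normal, and 2112 in the Dnmt+/+ tumor, against 13449 in normal. The tumor kept 11.3% to 35.5% of the paired normal intensity. After normalization tumor arrays ranged between 915 and 2331 with a median of 1654, and normal arrays between 4856 and 9981 with a median of 8389. The log2 difference was -2.28 ± 0.24 (SE, n = 6 tumor and 6 normal arrays, limma adjusted p = 0.000135). The gap was smaller in both diet #1 pairs, whose arrays had another file format, than in the 4 other pairs.

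Slc5a1, which encodes the sodium-glucose cotransporter SGLT1, lies at chr5:33104219-33162699 and was read by 94357_at. In diet #1 its deposited intensity was 1597 in the Dnmt+/- tumor, against 2971 in normal, and 2407 in the Dnmt+/+ tumor, against 4710 in normal. The diet #2 arrays gave 3057 in the Dnmt+/- tumor, against 9448 in normal, and 4951 in the Dnmt+/+ tumor, against 9727 in normal. The diet #3 arrays gave 2799 in the Dnmt+/- tumor, against 11708 in normal, and 3223 in the Dnmt+/+ tumor, against 13029 in normal. Tumors held 23.9% to 53.8% of the paired normal value, the smallest difference among the 5 genes called. The mean log2 normalized intensity was 11.68 ± 0.53 in tumor and 12.99 ± 0.21 in normal intestine (SD, n = 6 arrays each). The log2 difference was -1.31 ± 0.19 (SE, limma adjusted p = 0.000722).

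Other sugar transporters and their partners did not move one way. Of 8 such genes on the array 6 were tested, and 2 were higher, 3 lower (1 without diet #3) and 1 not called. Slc2a1, which encodes GLUT1, the glucose transporter of many growing cells, was 4.86-fold higher in tumor (log2 difference 2.28 ± 0.32, SE, n = 6 tumor and 6 normal arrays, limma adjusted p = 0.000661). Its normalized intensity was 300 to 550 in tumors, with a median of 471, against 44.8 to 189 in normal intestine, with a median of 98.3 and 1 normal array at the floor. Fxyd3, a modulator of the sodium pump, was 8.93-fold higher in tumor (limma adjusted p = 5.62e-06), with 2366 to 5130 in tumors, against 312 to 478 in normal intestine. The gene of the sodium pump's beta subunit, Atp1b1, which keeps up the sodium gradient that SGLT1 uses, was 2.25-fold lower (limma adjusted p = 0.000577). The probe set of Atp1b1 carries the suffix that marks probes shared with similar transcripts. The 2 other genes called lower, named after their values were seen, were Pdzk1, a scaffold of brush border transporters (2.20-fold), and Sgk1, a kinase that stimulates several transporters (1.54-fold). Slc2a8, another facilitative sugar transporter gene, differed by 0.018 log2 units and was not called.

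**Figure D2:**
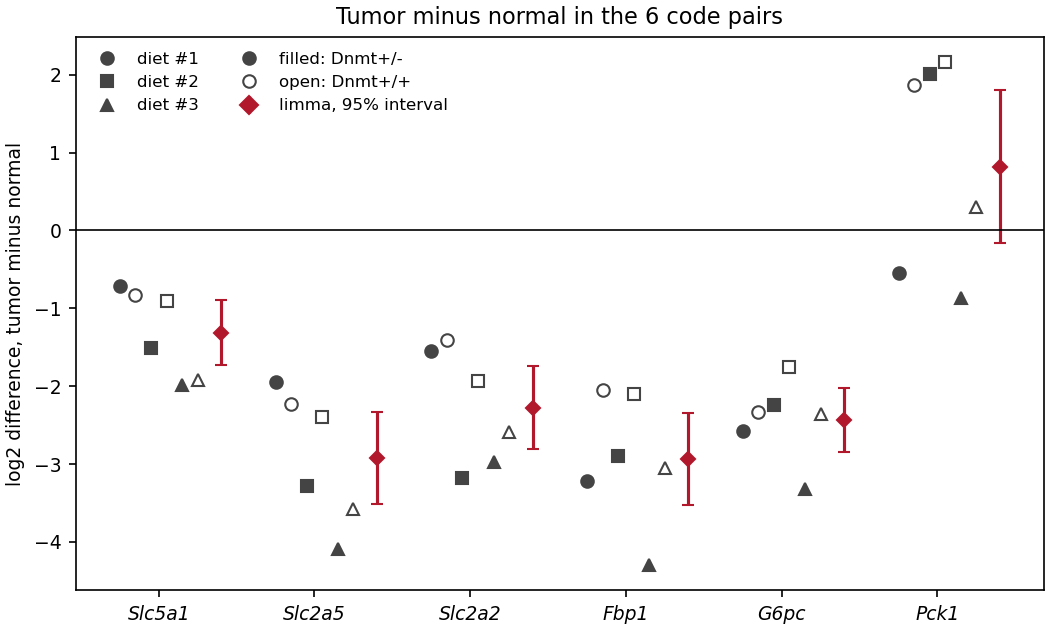
Log2 difference, tumor minus normal (vertical axis), of 6 genes in each of the 6 code pairs (diet as marker shape, Dnmt+/- filled, Dnmt+/+ open), with limma's estimate and its 95% interval as a red diamond and bar. All pairs lie below 0 for Slc5a1, Slc2a5, Slc2a2, Fbp1 and G6pc, while Pck1 has 4 pairs above 0 and 2 below.

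Khk, the gene of ketohexokinase, lies at chr5:30921436-30931248 and was read by 104323_at. Its deposited intensity was 50, the value of the file's floor, in all 4 diet #1 arrays. Diet #2 arrays had 10.17 in the Dnmt+/- tumor, against 32.3 in normal, and 44.3 in the Dnmt+/+ tumor, against 10.15 in normal. Diet #3 arrays had 73.5 in the Dnmt+/- tumor, against 15.2 in normal, and 40.2 in the Dnmt+/+ tumor, against 25.3 in normal. Normalized values lay between 44.8 and 56.7 in tumors and between 44.8 and 48.9 in normal intestine, with 3 tumor and 5 normal arrays at the floor. The gene was left out by the filter, so no tissue difference of Khk was measurable with this probe set. Without the filter the log2 difference was 0.058 (limma adjusted p = 0.622 over 9840 features).

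Other enzymes of fructose and polyol use were lower in tumor or not called. All 5 of these genes on the array were tested, 3 were lower in tumor (2 without diet #3) and 0 higher. Gpd1, the cytosolic glycerol-3-phosphate dehydrogenase, which turns dihydroxyacetone phosphate into the backbone of triglycerides, was 3.22-fold lower (log2 difference -1.69 ± 0.17, SE, n = 6 tumor and 6 normal arrays, limma adjusted p = 0.000103). Its normalized intensity was 1172 to 2585 in tumors, against 5211 to 7832 in normal intestine. The mitochondrial enzyme gene Gpd2 was 1.78-fold lower, with a probe set whose suffix marks probes shared with similar transcripts, and the aldehyde dehydrogenase gene Aldh2 was 1.57-fold lower (limma adjusted p = 0.000636 and 0.00707). A second probe set of Gpd1 differed by -1.91 log2 units.

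Fbp1, the gene of fructose-1,6-bisphosphatase, lies at chr13:62864753-62888298 and was read by 96918_at. In diet #1 its deposited intensity was 484 in the Dnmt+/- tumor, against 4084 in normal, and 1031 in the Dnmt+/+ tumor, against 4534 in normal. Its diet #2 values were 1690 in the Dnmt+/- tumor, against 12385 in normal, and 2318 in the Dnmt+/+ tumor, against 10318 in normal. Its diet #3 values were 935 in the Dnmt+/- tumor, against 17911 in normal, and 2005 in the Dnmt+/+ tumor, against 16446 in normal. Tumors held 5.22% to 22.7% of the paired normal intensity, with the lowest share in the diet #3 Dnmt+/- pair. The mean log2 normalized intensity was 10.42 ± 0.54 in tumor and 13.35 ± 0.36 in normal intestine (SD, n = 6 arrays each). The log2 difference was -2.93 ± 0.26 (SE, limma adjusted p = 5.78e-05).

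G6pc, the gene of the catalytic subunit of glucose-6-phosphatase, lies at chr11:101367716-101377903 and was read by 103333_at. In diet #1 its deposited intensity was 252 in the Dnmt+/- tumor, against 1430 in normal, and 314.5 in the Dnmt+/+ tumor, against 1476 in normal. For diet #2 the intensity was 1297 in the Dnmt+/- tumor, against 5879 in normal, and 1208 in the Dnmt+/+ tumor, against 3622 in normal. For diet #3 it was 943 in the Dnmt+/- tumor, against 9599 in normal, and 1451 in the Dnmt+/+ tumor, against 7892 in normal. The tumor value was 9.82% to 33.3% of the paired normal value. After normalization tumor arrays ranged between 598 and 1123 with a median of 789, and normal arrays between 2889 and 7250 with a median of 4146. The log2 difference was -2.43 ± 0.18 (SE, n = 6 tumor and 6 normal arrays, limma adjusted p = 2.25e-05).

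Pck1, the gene of the cytosolic phosphoenolpyruvate carboxykinase, lies at chr2:173153073-173159274 and was read by 160481_at. In diet #1 its deposited intensity was 180 in the Dnmt+/- tumor, against 247 in normal, and 238 in the Dnmt+/+ tumor, against 51.2 in normal. In diet #2 it was 649 in the Dnmt+/- tumor, against 130 in normal, and 565 in the Dnmt+/+ tumor, against 88.7 in normal. In diet #3 it was 694 in the Dnmt+/- tumor, against 1153 in normal, and 852 in the Dnmt+/+ tumor, against 644 in normal. After normalization the 6 tumors lay close together, between 386 and 669, while the normal arrays spread between 86.2 and 951 and overlapped them. The 3 low normal arrays were both of diet #2 and the Dnmt+/+ array of diet #1, and the 3 other normal arrays were within or above the range of the tumors. The mean log2 normalized intensity was 8.91 ± 0.27 in tumor and 8.09 ± 1.52 in normal intestine (SD, n = 6 arrays each). The log2 difference of 0.82 ± 0.44 (SE, limma adjusted p = 0.179) had a 95% interval of -0.16 to 1.80, which spans no difference and a higher level in tumor. Without the diet #2 arrays it was 0.19 (limma adjusted p = 0.813).

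Other genes on the way to glucose were lower in tumor or not called. Of 16 such genes on the array 14 were tested, and 8 were lower, 0 higher and 6 not called, with a median log2 difference of -0.34. Slc37a4, the transporter that brings glucose-6-phosphate to glucose-6-phosphatase in the endoplasmic reticulum, was 4.97-fold lower (log2 difference -2.31 ± 0.11, SE, n = 6 tumor and 6 normal arrays, limma adjusted p = 1.73e-06). Its normalized intensity was 557 to 1000 in tumors, against 2928 to 5091 in normal intestine, and the tissues did not overlap. Fbp2, the bisphosphatase best known from muscle, was 1.76-fold lower, and Slc25a11, the mitochondrial oxoglutarate carrier, 1.65-fold lower (limma adjusted p = 0.000859 and 0.00235). G6pc3, the widely expressed form of the phosphatase, had a log2 difference of 0.12 (limma adjusted p = 0.523). The mitochondrial carboxykinase gene Pck2 had one of -0.49 (limma adjusted p = 0.315). Its sign depended on the settings: -0.077 with median scaling, 0.15 on the values as deposited and 0.21 without diet #1. In 2 tumor arrays Pck2 had the file's floor value of 50. G6pc3 and Pck2 were added for their kinship to G6pc and Pck1, after their values were seen. The number of this group called lower was 4 without diet #2 or without diet #3, 5 on the values as deposited and 9 with median scaling.

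Enzymes of the opposing, glycolytic direction, listed together with kinases of pyruvate dehydrogenase, were mixed. Of 11 on the array 10 were tested, with 3 higher, 4 lower and 3 not called. The kinase genes, which are not glycolytic enzymes, are in these counts: Pdk4 among the 4 lower and Pdk1 among the 3 not called. Hk2, the hexokinase induced in many growing cells, was 4.80-fold higher in tumor (log2 difference 2.26 ± 0.16, SE, n = 6 tumor and 6 normal arrays, limma adjusted p = 1.64e-05). Its normalized intensity was 733 to 1450 in tumors, against 151 to 264 in normal intestine. Pklr, the liver form of pyruvate kinase, was 2.41-fold lower (limma adjusted p = 1.6e-05), and Pdk4, which shuts down pyruvate dehydrogenase, 2.94-fold lower (limma adjusted p = 0.0167). The split depended on the scaling: 1 gene was higher and 6 were lower with median scaling, where the median of all features was -0.099, and 1 was higher and 4 were lower on the values as deposited, where it was 0.13. Without single diets, 1 to 2 genes were higher and 3 to 5 lower. Hk2 was higher and Pklr lower in each case.

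**Figure D3:**
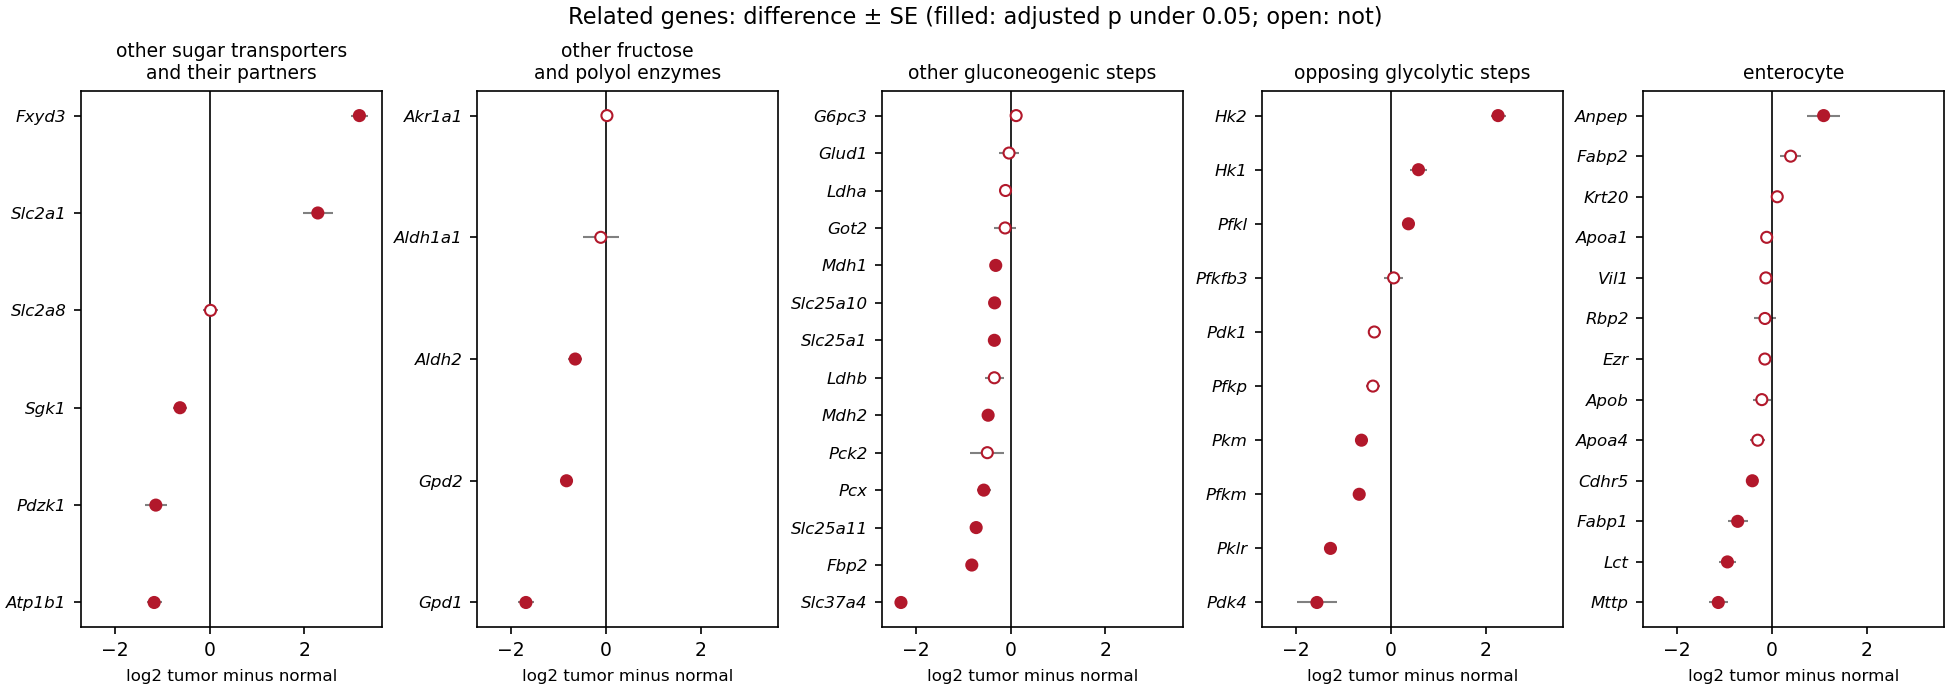
Log2 difference, tumor minus normal (horizontal axis), with its SE from limma (6 tumor and 6 normal arrays) for the tested genes of 4 pathway groups and for the enterocyte markers; filled points have an adjusted p under 0.05. Fxyd3, Slc2a1 and Hk2 lie farthest to the right and Slc37a4 farthest to the left, and of the 13 enterocyte markers 4 are called lower here and 9 with median scaling.

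Of 26 regulators of sugar genes on the array 21 were tested, with 4 higher, 5 lower and 12 not called, and a median log2 difference of 0.021. Without diet #2 there were 3 higher and 3 lower, and without diet #3 2 higher and 4 lower. Foxa1 and Foxa3, forkhead factors of gut and liver, were 5.65-fold and 2.79-fold higher in tumor (limma adjusted p = 0.00179 and 0.00648). Each had 1 normal array at the floor, so these folds depend on the floor. Ppargc1a, a coactivator of gluconeogenic genes in liver, was 2.74-fold lower (limma adjusted p = 0.00197), with 44.8 to 92.4 in tumors, against 48.9 to 420 in normal intestine. Tumor and normal arrays overlapped for Ppargc1a, and 1 tumor array was at the floor.

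Markers of other cells and of gut segments were measured beside the sugar genes. Of 13 enterocyte markers 1 was higher, 4 were lower and 8 were not called, with a median log2 difference of -0.15. Their summed normalized intensity was 125885 to 157902 in tumors. In normal intestine it was 119934 and 129719 in the diet #2 arrays, and 176072 to 195696, above all tumors, in the others. With median scaling 0 markers were higher and 9 lower, without diet #2 0 and 4, and without diet #3 0 and 2. In each of the 6 pairs, Fbp1, G6pc, Slc2a5, Slc2a2 and Slc5a1 had a more negative difference than the mean of these markers. The member's difference minus that mean was -3.66 to -1.85 log2 units for Fbp1 and -1.68 to -0.30 for Slc5a1. The share of all features below that mean in each pair was not counted. Single markers differed widely, from -1.13 for Mttp to 1.09 for Anpep, and the part of enterocyte number in the member differences was not tested. Markers of the proximal small intestine were lower in tumor for 3 of 4, led by the hormone genes Cck (5.29-fold) and Gip (3.62-fold). Their summed level was 6795 to 9633 in tumors, against 13954.5 to 23006 in normal intestine. Of 2 distal markers tested, Fabp6, the ileal bile acid binding protein, was 90.0-fold higher in tumor (limma adjusted p = 2.71e-07). This fold depends on the scaling: the log2 difference was 6.49, against 5.86 with median scaling and 6.09 on the values as deposited. The other distal marker tested, Gcg, was not called (log2 difference 0.18, limma adjusted p = 0.717), and Slc10a2 was left out by the filter. The summed level of these 3 distal markers, which holds Fabp6, was 3010 to 14939 in tumors, against 134 to 351 in normal intestine. Those normal sums are near the floor, which is 44.8 for each marker. The stretch of intestine behind each array is not in the labels, and the part of segment in the sugar gene differences was not tested.

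Tissues that make glucose or use Pck1 were checked in the same way. Liver markers were lower in tumor for 2 of 4 tested, and 12 were on the array. On the values as deposited, and without diet #1, #2 or #3, 0 of these 4 were lower, and without diet #2 the albumin gene Alb was higher (log2 difference 1.28, limma adjusted p = 0.0256). Their summed level was 1200 to 1622 in tumors, against 1336 to 1700 in the normal arrays of diets #1 and #3, and it was 1175 and 4067 in the Dnmt+/- and Dnmt+/+ normal arrays of diet #2. The array with 4067 had the lowest normalized G6pc (2889), Fbp1 (7506) and Pck1 (86.2) among the 6 normal arrays. Its Slc2a2 (8915) was above all but 1 of them, and its Slc2a5 (2694) and Slc5a1 (7227) were below all but 1. Adipose markers were lower in tumor for 5 of 6, with a summed level of 1157 to 1451 in tumors, against 1898 to 2426 in normal intestine. Their part in the Pck1 values was not tested, and the normal arrays low in Pck1 had adipose sums of 1898 to 2084, against 2285 to 2426 in the 3 others. Endocrine pancreas markers had 1 of 3 lower, smooth muscle markers 1 higher and 1 lower of 8, mast cell markers 4 of 4 higher, and cell cycle genes 10 of 11 higher. Several of these counts were smaller with a diet left out: adipose markers had 3 lower without diet #2 and 1 without diet #3, and cell cycle genes 4 and 6 higher. Smooth muscle markers had 0 lower without diet #1, 0 higher without diet #2 and neither without diet #3. The 4 mast cell markers were higher in each case.

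Whether diet changed the tumor difference was asked with an interaction test. None of the 6 members tested was called by limma's F test, against 1.48% of all features, and 3 had a p under 0.05 without adjustment, against 13.4% of all features. For Slc2a5 the mean difference of the 2 pairs was -2.09 ± 0.20 in diet #1, -2.84 ± 0.63 in diet #2 and -3.84 ± 0.37 in diet #3 (log2, SD, n = 2 pairs each; limma adjusted p = 0.112). For Slc5a1 it was -0.77 ± 0.08, -1.21 ± 0.42 and -1.95 ± 0.05 in the same order (limma adjusted p = 0.151), and for Slc2a2 -1.48 ± 0.10, -2.56 ± 0.88 and -2.79 ± 0.27 (limma adjusted p = 0.305). In all 3 transporter genes both diet #1 pairs differed less than both diet #3 pairs. In Slc2a2, the pairs of diets #2 and #3 overlapped, and in Slc2a5 and Slc5a1 they did not. These orders rest on 2 pairs per diet, and the share of all features with the same order was not counted. The 3 genes also vary together, and diet #1 cannot be told apart from its file format. Fbp1 had mean differences of -2.64, -2.49 and -3.67 and G6pc of -2.46, -2.0 and -2.84 (limma adjusted p = 0.504 and 0.542). For Pck1 the mean difference was 0.66 ± 1.70, 2.08 ± 0.11 and -0.28 ± 0.82 (limma adjusted p = 0.403), with both diet #2 tumors above their normal arrays. Without the Dnmt+/- or the Dnmt+/+ normal array of diet #1, Pck1 was called (limma adjusted p = 0.0414 and 0.0239), and on the values as deposited Slc2a5 was (0.0459).

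Arrays of diets #3 and #2 share a mean of 1000 and lack the floor of 50, and were compared over both tissues. Their deposited values carry different numbers of decimals, so diet and any difference in file making cannot be told apart here either. None of the 6 members tested was called by limma, against 9.28% of all features. These were 594 features, with 364 higher in diet #3 and 230 lower (274 without the code as a block, with 175 higher and 99 lower). On the values as deposited, 3 features were higher in diet #3 and 3 lower. Of the 6 members, 1 had a p under 0.05 without adjustment, against 26% of all features. This was Pck1, at 1.68 ± 0.47 log2 units higher in diet #3 (SE, n = 4 arrays per diet, limma adjusted p = 0.054). Its call depended on the settings: it passed the threshold without the diet #1 arrays (limma adjusted p = 0.0163) and with median scaling (0.0461), and not on the values as deposited (0.238). In normal intestine its normalized intensity was 951 and 543 in diet #3, against 113 and 86.2 in diet #2, without overlap. In tumors it was 522 and 669 in diet #3, against 453 and 386 in diet #2, which also did not overlap but lay closer together. The 2 low normal arrays are those with the exocrine pancreas markers, whose part in the Pck1 difference was not tested. G6pc had a log2 difference of 0.43 ± 0.20 (SE, limma adjusted p = 0.205) and passed the threshold without the diet #3 Dnmt+/- tumor array (0.0192). The other 4 members had differences between -0.021 and 0.11, with 95% intervals that reached no further than -0.65 to 0.73. These values average over both tissues, so changes in opposite directions cancel in them. The log2 tumor difference in diet #3 minus that in diet #2 was -1.18 for Fbp1, -0.99 for Slc2a5, -0.74 for Slc5a1 and -0.23 for Slc2a2. For Fbp1, normal arrays had 14111 and 12939 in diet #3, against 9186 and 7506 in diet #2. Its tumor arrays had 718 and 1561, against 1237 and 1756.

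Genotype was compared with tissue and diet as terms. None of the 6 members tested was called by limma between Dnmt+/- and Dnmt+/+, against 0.0469% of all features (3 features, and 1 without the code as a block), and 1 had a p under 0.05 without adjustment, against 7.05% of all features. That gene was Slc2a2, at -0.52 ± 0.21 log2 units (SE, n = 6 Dnmt+/- and 6 Dnmt+/+ arrays, limma adjusted p = 0.698). In tumors, Slc2a2, Slc2a5, Slc5a1 and Fbp1 were each lower in the Dnmt+/- array than in the Dnmt+/+ array of the same diet in 3 of 3 diets, on normalized and deposited values alike. Such a count rests on single arrays, and the share of all features with the same direction in 3 of 3 diets was not counted. The 3 transporter genes also vary together, so their counts are not independent. The mean log2 difference in tumors was -0.81 ± 0.47 for Slc2a2, -0.65 ± 0.34 for Slc2a5, -0.35 ± 0.32 for Slc5a1 and -0.79 ± 0.31 for Fbp1 (SD, n = 3 diets). In normal intestine, the 3 transporter genes were again lower in Dnmt+/- in 3 of 3 diets, by smaller mean differences of -0.22 ± 0.11 for Slc2a2, -0.27 ± 0.30 for Slc2a5 and -0.16 ± 0.08 for Slc5a1. For Fbp1 and G6pc the direction in normal intestine was the other way, at 0.28 ± 0.15 and 0.44 ± 0.16. In diet #1 their deposited values in the Dnmt+/- normal array were 90.1% and 96.9% of those in Dnmt+/+. That Dnmt+/- array was also dimmer as a whole, with a mean intensity of 311, against 399. Pck1 was higher in the Dnmt+/- normal arrays in 3 of 3 diets. Its deposited value was 482%, 147% and 179% of the Dnmt+/+ array in diets #1, #2 and #3, and in tumors it differed by -0.04 ± 0.30 log2 units.

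**Figure D4:**
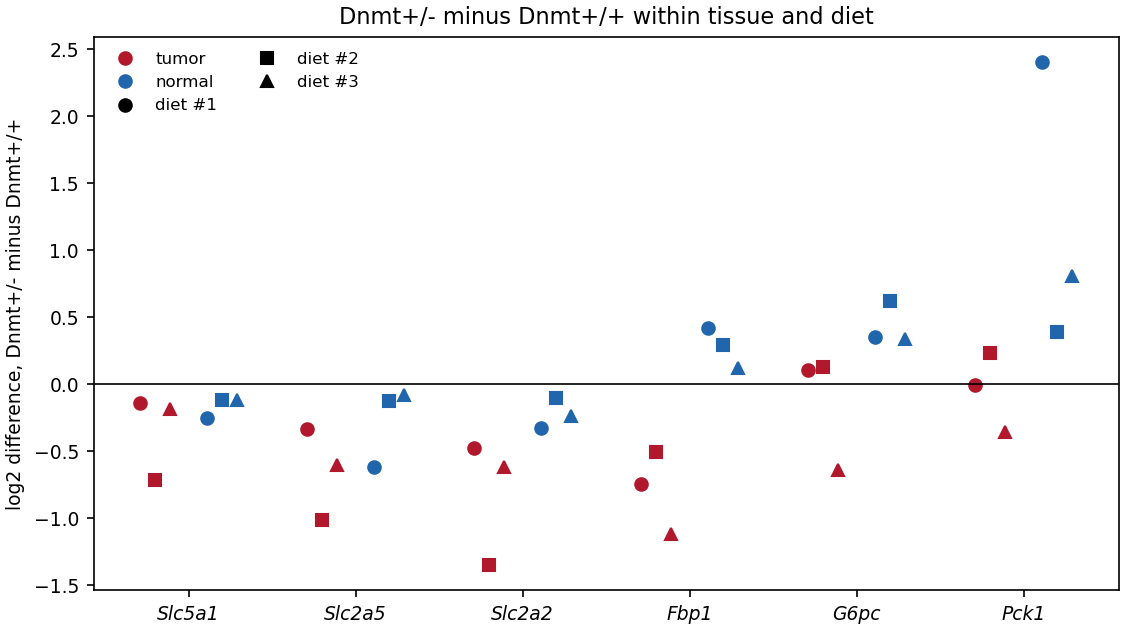
Log2 difference, Dnmt+/- minus Dnmt+/+ (vertical axis), of 6 genes within each tissue (tumor red, left of normal, blue) and diet (marker shape); each point compares 2 arrays. The 3 tumor points of Slc5a1, Slc2a5, Slc2a2 and Fbp1 lie below 0, and the 3 normal points of Fbp1, G6pc and Pck1 lie above 0.

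Whether genotype changed the tumor difference was tested as an interaction, and none of the 6 members was called by limma, against 0% of all features. Without adjustment 1 member had a p under 0.05, against 2.17% of all features. It was Fbp1, whose tumor difference was -3.47 ± 0.73 in Dnmt+/- and -2.40 ± 0.56 in Dnmt+/+ (log2, SD, n = 3 pairs each), a difference of -1.07 ± 0.42 (SE, limma adjusted p = 1). G6pc had -2.72 ± 0.55 in Dnmt+/- and -2.15 ± 0.34 in Dnmt+/+, and Slc2a2 -2.57 ± 0.89 and -1.98 ± 0.59 in the same order. For Slc2a5 the values were -3.11 ± 1.08 and -2.73 ± 0.73, and for Slc5a1 -1.41 ± 0.64 and -1.22 ± 0.61. Pck1 had 0.20 ± 1.57 in Dnmt+/- and 1.44 ± 1.00 in Dnmt+/+, a difference of -1.25 ± 0.84 (SE, limma adjusted p = 1). In all 6 genes the pairs of the genotypes overlapped in range. The tumor difference was lower in the Dnmt+/- pair than in the Dnmt+/+ pair of the same diet in 3 of 3 diets for Fbp1, G6pc, Slc2a2 and Pck1, and in 2 of 3 for Slc2a5 and Slc5a1. The share of all features with such a count was not determined, so these directions are given as values only.

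With diet means removed, the 5 genes lower in tumor correlated with each other at 0.91 to 0.99 over the 12 arrays. Slc2a5 was most like Slc5a1 (Pearson's r = 0.99), Slc2a2 was most like Slc2a5 (0.99), and Fbp1 and G6pc were most like each other (0.98). The tissue difference that all 5 share enters these values. With tissue means removed too, r was 0.98 for Slc2a5 with Slc5a1, 0.91 for Slc2a2 with Slc2a5 and 0.88 for Slc2a2 with Slc5a1. Fbp1 then had 0.72 with G6pc and 0.68 with Slc2a5, and the highest r of G6pc was with Pck1. Pck1 had its highest r with G6pc, at -0.34 with diet means removed and 0.77 with tissue means removed too. Removing both means leaves in any tissue difference that varies among diets, including that of diet #1 with its file format. Among genes outside the 7, the 8 most like the mean profile of the members tested were Mrps15, Tmem230, H2-Q1, Scoc, Galm, Fbxo8, Reep6 and Sdhb, with r between 0.979 and 0.985 over 12 arrays. Galm encodes the mutarotase that interconverts the ring forms of galactose and glucose, Sdhb a subunit of succinate dehydrogenase, Mrps15 a protein of the mitochondrial ribosome. Galm was 1.80-fold and Sdhb 1.74-fold lower in tumor. The arrays share tissue and processing, so these values describe likeness and were not tested.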

How the data were processed

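Per the labels, 6 tumors and 6 normal intestines were hybridised to MG_U74Av2 arrays of Affymetrix, with 1 colour. The authors deposited an intensity on the linear scale for each probe set, and no source used here names the software that summarised the probes. Arrays of diets #2 and #3 were scaled to a mean of 1000, and those of diet #1 were not, as read from the values.

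From these, 66 control probe sets were removed, the intensities of the other 12422 were quantile-normalized, raised to the 20th percentile (44.8) where lower, and put on the log2 scale. After removal of the dimmest 40% by mean, each gene kept its brightest probe set, which gave 6400 features. The annotation gave 1 symbol to 10833 probe sets, several to 396 and none to 1193. For tissue, limma 3.58.1 (R 4.3.3) was run with a model that also held diet and genotype. The fits for genotype, diet and both interactions had the sample code as a random block. Its correlation was -0.16 in the fit for genotype and diet and was estimated separately for each interaction. P-values were adjusted by Benjamini-Hochberg over all features, with a threshold of 0.05.

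The 7 genes and the gene lists were chosen with earlier results of these data known. Named were the 7 genes, the 3 genes of each pathway list with the largest called tissue difference, at most 3 of each marker list, and the 8 genes most like the mean of the members. Sequences are from RefSeq. Titles give the code that pairs 2 arrays. Around the tissue means, arrays of a code correlated at 0.46 to 0.68, and at -0.57 to -0.38 once diet and genotype were removed. That removal leaves less freedom between codes than within them, which by itself makes such values negative. They therefore cannot show whether the arrays of a code are paired. No array duplicated another: the highest correlation within a tissue was 0.982. Alternatives were other scalings, floors, filters, probe set rules, variances and blocks, and each diet or array left out. The fits were tested on simulated data.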

Additional observations from a re-analysis of the deposited data

How the results depend on the processing

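The same 5 genes were called lower in tumor under all 24 alternatives, with log2 differences of -3.16 to -2.57 for Fbp1, -2.65 to -2.23 for G6pc, -3.34 to -2.47 for Slc2a5, -2.67 to -2.02 for Slc2a2 and -1.65 to -0.99 for Slc5a1, and limma adjusted p of at most 0.0178. Pck1 ranged between 0.19 and 1.37 and was called under none of the 24 (lowest limma adjusted p = 0.0657). With the code as a fixed replicate block, the 5 genes were called and 2105 features passed, against 2251. Leaving the block out of the diet and genotype tests changed no call of a member, but features called between diets #3 and #2 numbered 274 without it and 594 with it (175 and 364 higher, 99 and 230 lower), and between genotypes 1 and 3. Features called numbered 1286 without diet #2 and 1245 without diet #3, which leave fewer arrays, and 1879 to 2178 with single arrays left out. Their split of 1167 higher and 1084 lower became 847 and 1551 with median scaling and 1358 and 729 on the values as deposited.

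Between diets #3 and #2, 1 member, Pck1, was called with median scaling, with the floor at the 40th percentile, with the lowest 60% left out, with trended and robust variances and without diet #1. With single arrays left out 0 to 2 members were called: Pck1 without either normal array or the Dnmt+/+ tumor of diet #1, and Pck1 with G6pc without the diet #3 Dnmt+/- tumor. Over these 22 alternatives the limma adjusted p of Pck1 was 0.0163 to 0.238, and the cause was not tested. In the tissue by diet test 1 member, Slc2a5, was called on the values as deposited, and with single arrays left out 0 to 1 members were called, Pck1 without either normal array of diet #1. For genotype and tissue by genotype 0 members were called under each of the 24 alternatives. Khk lay at or near the floor in all 12 arrays, and no tissue difference of it was measurable with this probe set.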
